A study of Homo sapiens with 12 samples.

Results

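Mucins, trefoil factors and the genes that help epithelial cells make and secrete them were followed in 2 esophageal carcinoma cell lines. The list named 10 genes: MUC1, MUC13, MUC20, MUC5AC, MUC5B, TFF1, TFF2, TFF3, AGR2 and SPDEF. Members were taken by gene symbol, and 8 of the 10 had probes on the array, 12 probes of 47323 in all. MUC20 and MUC5AC had no probe under their symbol in the platform annotation and are not analysed here. Of the 8 genes, only AGR2 and MUC1 were detected on enough arrays to be tested, against 12322 genes tested in the fit of all arrays.

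The lines were OE21, from an esophageal squamous cell carcinoma, and OE33, from an adenocarcinoma that arises in Barrett's esophagus, where columnar cells replace squamous ones. Each line received either a pool of 4 STAT3 siRNA sequences or a negative control siRNA, which the labels also call a scrambled vector. Cells were transfected 2 times with 100 nM siRNA and measured 72 h after the first time. Each of the 4 groups had 3 arrays, which the design text calls biologically independent. OE33 cells were transfected with DharmaFECT and OE21 cells with siPORT NeoFX, so the line and its reagent cannot be told apart. Untreated cells are not analysed here, so every group shares a transfection, and the 2 lines stand for 1 tumour of each type.

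Mucins are large glycoproteins whose threonine- and serine-rich stretches carry dense O-linked sugars. MUC5AC and MUC5B are secreted and form gels, while MUC1, MUC13 and MUC20 sit in the membrane. Trefoil factors are small, stable peptides secreted together with mucins. AGR2 is a protein disulfide isomerase of the endoplasmic reticulum needed for mucin folding in the mouse intestine, and SPDEF is a transcription factor that drives goblet cell maturation. Columnar and metaplastic epithelia of the gut are known for these genes.

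Between 38.1% and 40.5% of all probes were detected per array, detection meaning a deposited detection p under 0.01. OE33 control 2 stood apart from the other OE33 arrays, at -0.89 on the line's first principal component (58.4% of the variance) against 0.0031 to 0.27. Arrays correlated at 0.974 to 0.988 across probes within a line and at 0.904 to 0.923 between the lines. OE21 arrays detected 9 of 10 squamous markers with a probe on all 3 arrays of each group, among them KRT5, KRT14 and DSG3, which OE33 arrays detected on none. KRT13, KRT15, DSC3 and SFN of the same list were detected on all 12 arrays. OE33 arrays detected 6 of 10 columnar markers on all arrays, with KRT7, KRT8 and CDX2 among them, while KRT20, CDH17, VIL1 and CDX1 were detected on 0 of 12 arrays. The endothelial markers other than VWF, the fibroblast markers COL3A1, LUM and PDGFRA and the immune markers PTPRC, CD3E and TYROBP were detected on 0 of 12 arrays. CD14, CD68 and HLA-DRA were detected on 12 arrays, COL1A2 on 7, COL1A1 on 4, DCN on 2, LAPTM5 on 1 and VWF on the 6 of OE21. In OE21 the STAT3 siRNA left 22.9% of the STAT3 signal (95% confidence interval 15.7% to 33.5%, limma adjusted p = 0.278). In OE33 it left 68.4% (42.1% to 111%, limma adjusted p = 0.991). The other 2 STAT3 probes left 25.0% each in OE21, and limma called 1 of them over probes (ILMN_1663618, adjusted p = 0.0498). In OE33 they left 82.1% (54.7% to 123%) and 68.5% (53.2% to 88.3%), both with limma adjusted p = 0.986 over probes. For the second of these, ILMN_2410986, the interval lies below 100% and the unadjusted p was 0.00932.

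**Figure D1:**
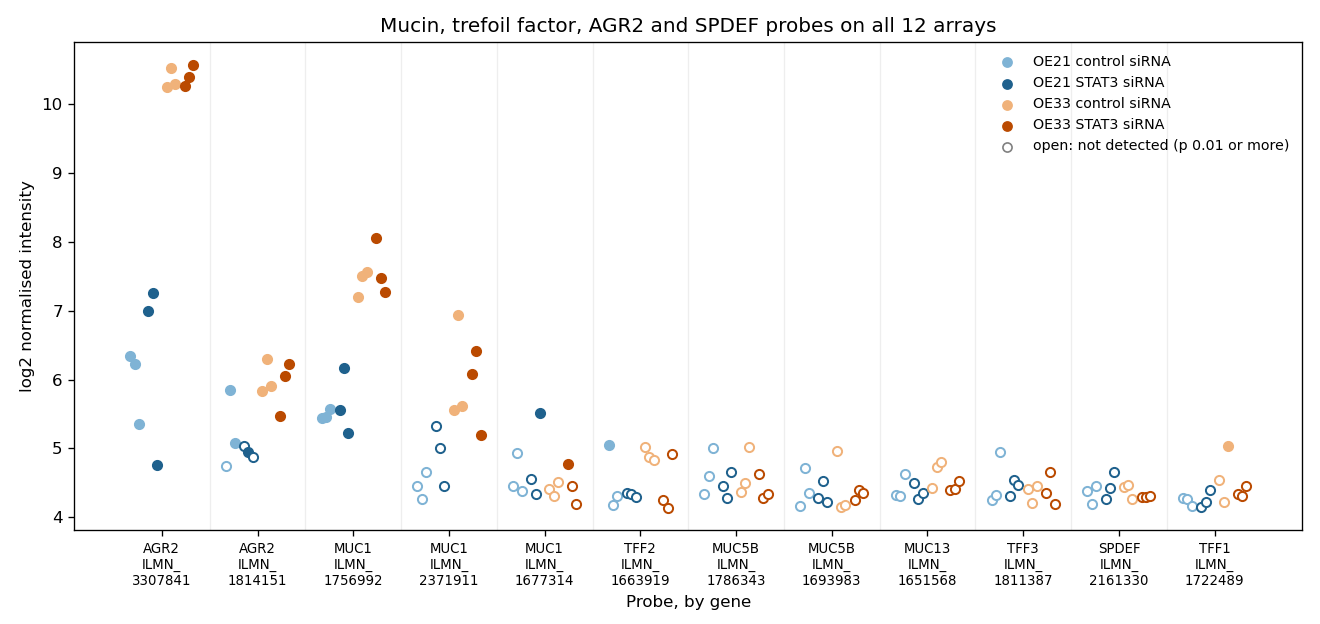
Log2 normalised intensity (vertical axis) of the 12 probes of 8 genes (horizontal axis) on the 12 arrays, coloured by line and siRNA, with open circles where a probe was not detected. AGR2 on OE33 arrays lies between 10.25 and 10.57, and the probes of the trefoil factors, MUC5B, MUC13 and SPDEF lie at 5.04 or below on all arrays.

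AGR2 was the member with the widest gap between the lines. Its probe ILMN_3307841 read 6.34, 6.23 and 5.35 log2 units on the OE21 control arrays and 10.25, 10.52 and 10.29 on the OE33 control arrays. On the STAT3 siRNA arrays it read 7.0, 7.26 and 4.76 in OE21 and 10.26, 10.39 and 10.57 in OE33. Every OE33 array lay above every OE21 array, and the OE21 arrays were spread far more widely than those of OE33. As deposited, the intensity ran from 108 to 234 in OE21 and from 1258 to 1666 in OE33. The probe was detected on all 12 arrays.

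In control cells AGR2 was higher in OE33 by 4.38 log2 units (SE 0.51), which is 20.8-fold (95% confidence interval 9.55 to 45.4), with limma adjusted p = 2.40e-05. It ranked 70 of 12322 genes by the size of the rise. The arrays given STAT3 siRNA do not enter those means, and between them the difference was 4.07 (SE 0.51, limma adjusted p = 4.05e-05). Without OE21 siRNA 3, the array with the lowest AGR2 reading, that difference was 3.28. Without background correction the control cell difference was 3.23, and in the authors' deposited normalised values it was 3.15.

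The other AGR2 probe, ILMN_1814151, was dimmer and showed a smaller gap. It read 4.75, 5.84 and 5.07 on OE21 control arrays and 5.83, 6.30 and 5.91 on OE33 control arrays, and these groups overlapped. The difference was 0.79 (SE 0.27, limma adjusted p = 0.0344 over probes) in control cells and 0.96 (SE 0.27, limma adjusted p = 0.0128 over probes) in siRNA cells. It was detected on 3 of 6 OE21 arrays and on all 6 OE33 arrays. Both probes are annotated to the same transcript, and they agreed in direction but not in size.

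MUC1, a membrane mucin of many simple epithelia, was the other member measured in both lines. Its probe ILMN_1756992 read 5.44, 5.46 and 5.57 on OE21 control arrays and 7.19, 7.50 and 7.56 on OE33 control arrays. On the STAT3 siRNA arrays it read 5.56, 6.17 and 5.22 in OE21 and 8.05, 7.47 and 7.27 in OE33. The lines did not overlap with either siRNA. In control cells MUC1 was higher in OE33 by 1.93 (SE 0.25), or 3.81-fold (95% confidence interval 2.61 to 5.54), with limma adjusted p = 4.98e-05. In siRNA cells the difference was 1.95 (SE 0.25, limma adjusted p = 4.27e-05). Without background correction the control cell difference was 0.99, and in the authors' deposited normalised values it was 0.94.

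A different MUC1 probe, ILMN_2371911, was annotated to another transcript variant. It was detected on 0 of 6 OE21 arrays and on all 6 OE33 arrays, so it entered the fit only through the line where it was high. The OE33 control level was at least 2.78-fold higher (limma adjusted p = 0.00613 over probes). A bound sets the brighter group's mean against the lowest detected signal of each dimmer array, or that array's own reading where this is higher. In siRNA cells the bound was at least 1.93-fold, and the limma adjusted p was 0.0619 over probes. On the OE33 control arrays this probe read 5.55, 6.93 and 5.62, and control 2 stood above the others. The remaining probe, ILMN_1677314, was detected on 2 of 12 arrays and was not tested.

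Both tested members were thus called higher in OE33 control cells, 2 of 2, where 25% of all genes tested were called higher, 24.2% lower and 49.2% in either direction. In siRNA cells they were again 2 of 2, where 25.6% of all genes were called higher, 25.2% lower and 50.8% in either direction. Their arrays lay wholly above those of OE21, as did those of 27.9% of genes in control cells and 31% in siRNA cells. In bulk RNA, fewer cells of a type and less RNA per cell cannot be told apart. Ordered by level, AGR2 rose from OE21 control (5.97 ± 0.54, SD, n = 3) through OE21 siRNA (6.34 ± 1.37), OE33 control (10.35 ± 0.15) and OE33 siRNA (10.41 ± 0.15). The order for MUC1 was the same, at 5.49 ± 0.07, 5.65 ± 0.48, 7.42 ± 0.20 and 7.60 ± 0.40. For both genes, neighbours of the same line did not differ beyond their spread.

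**Figure D2:**
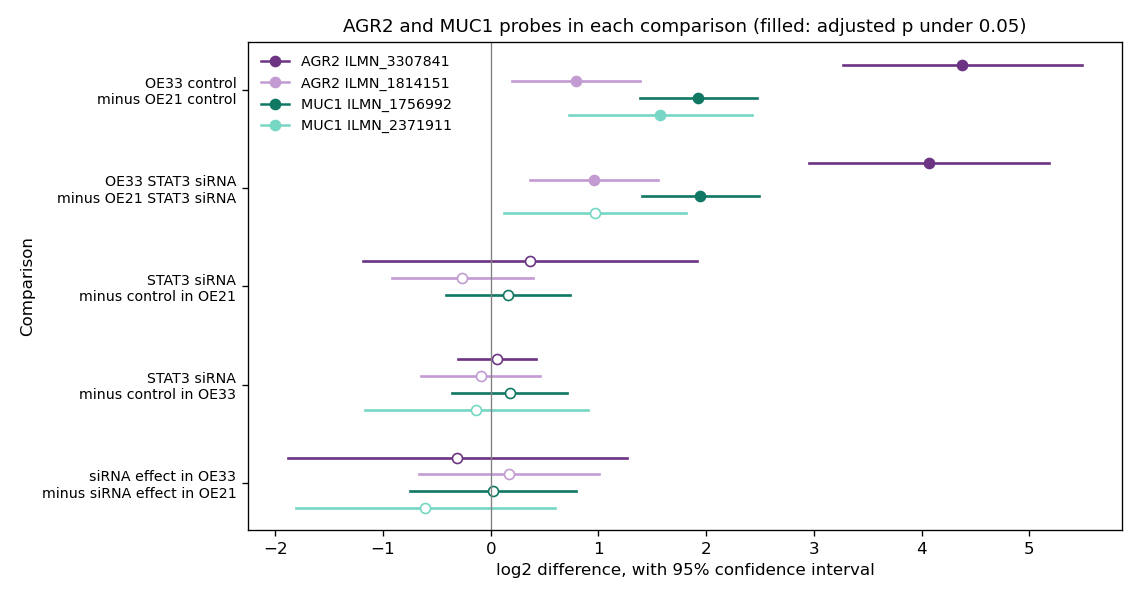
Log2 differences (horizontal axis) with 95% confidence intervals for the tested AGR2 and MUC1 probes in the 5 comparisons (vertical axis), from fits of single probes. Filled points have an adjusted p under 0.05. The differences between lines lie above 0 and those after STAT3 siRNA have intervals that include 0.

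The RefSeq promoter table (GRCh38.p14) held 4 of the 10 members, AGR2, MUC1, MUC13 and SPDEF. The windows of AGR2 and MUC1, the members that were higher in OE33, are shown as 300 bases around the annotated start, 5′ to 3′ on the minus strand. The AGR2 window is chr7:16804950-16805249 and that of MUC1 is chr1:155192866-155193165. The genes themselves lie at 16791811 to 16804999 on chromosome 7 and at 155185824 to 155192915 on chromosome 1. Capitals mark matches to the motifs searched.
AGR2: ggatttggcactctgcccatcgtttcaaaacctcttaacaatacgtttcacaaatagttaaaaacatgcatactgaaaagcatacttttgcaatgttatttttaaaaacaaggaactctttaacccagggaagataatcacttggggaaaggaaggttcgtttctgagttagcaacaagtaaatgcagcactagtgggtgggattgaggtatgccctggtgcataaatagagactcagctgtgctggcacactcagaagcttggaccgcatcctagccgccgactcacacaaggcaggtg
MUC1: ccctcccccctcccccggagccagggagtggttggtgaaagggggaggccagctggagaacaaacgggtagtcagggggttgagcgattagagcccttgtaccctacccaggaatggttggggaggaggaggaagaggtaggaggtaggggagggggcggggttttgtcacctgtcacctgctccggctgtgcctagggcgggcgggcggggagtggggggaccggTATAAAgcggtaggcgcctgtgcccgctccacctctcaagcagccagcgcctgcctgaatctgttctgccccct

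The motifs were TTCNNNGAA for STAT proteins, TGTTTAC for forkhead factors such as FOXA1, and TATAAA for the TATA box, each on both strands. The AGR2 window held 0 matches to any of them. The MUC1 window held 1 TATAAA, whose first base lies at -24 from the start, and 0 of the others. TTCNNNGAA was found in 7.66% of 35114 promoter windows of this length, TGTTTAC in 3.42% and TATAAA in 11.5%. The MUC13 and SPDEF windows held 0 matches to the 3 motifs. A match is only a description of these letters. The windows also differed in base composition, with 43.7% G and C in that of AGR2 and 65.7% in that of MUC1.

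The trefoil factors were at background in both lines. TFF1, a gastric peptide that estrogen induces in breast cells, read 4.28, 4.27 and 4.16 on OE21 control arrays and 4.54, 4.23 and 5.04 on OE33 control arrays. It was detected only on OE33 control 3, at a deposited intensity of 117 against an array median of 108.0. TFF2, the peptide of gastric mucous neck and gland cells, was detected only on OE21 control 1 (5.04). On OE33 control arrays TFF2 read 5.03, 4.88 and 4.83 and was detected on none. TFF3, the trefoil peptide of intestinal goblet cells, was detected on 0 of 12 arrays and read 4.19 to 4.95.

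The gel-forming mucin MUC5B and the membrane mucin MUC13 gave the same picture. The 2 MUC5B probes were detected on 0 of 12 arrays, and their smallest detection p was 0.0101. MUC13 was also detected on 0 of 12 arrays, with deposited intensities of 93.3 to 111.7. SPDEF had the weakest evidence of signal, with a smallest detection p of 0.124 over the 12 arrays. Its readings ran from 4.20 to 4.65 and overlapped in all 4 groups.

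Together with the MUC1 probe ILMN_1677314, which was detected on 2 arrays, 8 member probes were detected on fewer than 3 arrays. Of their 96 readings 4 were detected (4.17%), where 39.4% of the readings of all probes were. Their median deposited intensity was 99.0, against 106.9 over all probes. At this signal over background, a difference between the lines was not detectable for the trefoil factors, MUC5B, MUC13 and SPDEF. With a detection p under 0.05, an alternative chosen after seeing the data, TFF2 and MUC5B would also enter the fit, 4 genes in all. SPDEF would still be detected on 0 arrays.

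STAT3 is known to act in epithelial repair downstream of IL-6 family cytokines, and the siRNA comparisons asked whether these genes follow its reduction. AGR2 overlapped between siRNA and control arrays in both lines. For ILMN_3307841 the OE21 difference was 0.37 (SE 0.66), a ratio of 1.29 (95% confidence interval 0.432 to 3.85), with limma adjusted p = 0.860. In OE33 it was 0.057 (SE 0.15), a ratio of 1.04 (95% confidence interval 0.816 to 1.33), with limma adjusted p = 0.991. Without siRNA 3 the OE33 value was -0.024. The interval was narrower in OE33, the line where less of the STAT3 signal was lost. The dimmer probe ILMN_1814151 went the other way, at -0.26 (SE 0.28) in OE21 and -0.094 (SE 0.24) in OE33. Its limma adjusted p-values over probes were 0.763 and 0.986.

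The OE21 value of ILMN_3307841 depended on single arrays. Without siRNA 3 it was 1.16 (SE 0.32, limma adjusted p = 0.205), and without siRNA 2 it was -0.092. The main axis of variation of the OE21 arrays, the first principal component, carried 53.6% of the variance. Control 1, siRNA 1 and siRNA 2 lay on its positive side (0.35, 0.36 and 0.51) and had the highest OE21 readings of ILMN_3307841. Control 2, control 3 and siRNA 3 lay on its negative side (-0.36, -0.42 and -0.43). For this probe control 1 (6.34) read close to control 2 (6.23). The dimmer probe ILMN_1814151 did not follow the axis, with its lowest OE21 reading on control 1 (4.75) and its highest on control 2 (5.84). The part of this axis in the AGR2 result was not tested.

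MUC1 also overlapped between siRNA and control arrays in both lines. The difference was 0.16 (SE 0.24) in OE21, a ratio of 1.12 (95% confidence interval 0.748 to 1.66), with limma adjusted p = 0.832. In OE33 it was 0.18 (SE 0.23), a ratio of 1.13 (95% confidence interval 0.784 to 1.63), with limma adjusted p = 0.991. The probe ILMN_2371911 gave -0.13 (SE 0.44) in OE33. Without siRNA 2 the OE21 value turned to -0.10, and without siRNA 1 the OE33 value turned to -0.048. Without siRNA 3 the OE21 value was 0.37 and the OE33 value 0.34.

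Neither member was called in either line, where limma called 0 of 11179 genes in OE21 and 0 of 10634 in OE33 (0%). At an unadjusted p under 0.05 the shares of all genes were 11.3% and 2.75%, and 0 of the 2 members were among them. The groups did not overlap for 7.95% (higher) and 8.94% (lower) of genes in OE21, and for 3.53% and 4.19% in OE33. The test of the difference between the lines' siRNA effects called 0 of 12322 genes (0%, and 6.73% at an unadjusted p under 0.05). It gave -0.31 (SE 0.73, limma adjusted p = 0.953) for AGR2. For MUC1 it gave 0.019 (SE 0.35, limma adjusted p = 0.995).

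**Figure D3:**
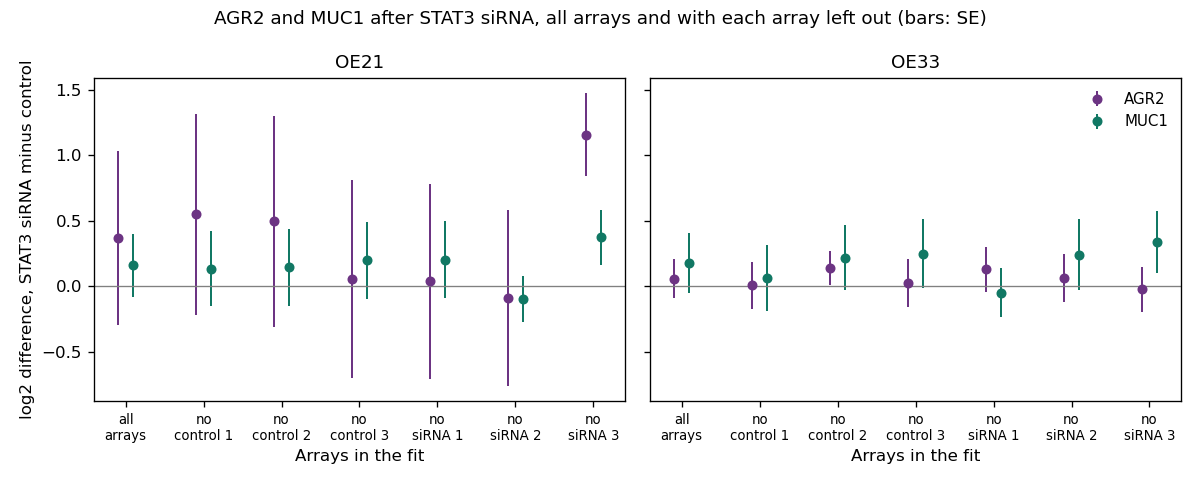
Log2 difference between STAT3 siRNA and control arrays (vertical axis, bars are SE) for AGR2 and MUC1 with all arrays and with each array left out in turn (horizontal axis), in OE21 and OE33. Leaving out OE21 siRNA 3 moves AGR2 from 0.37 to 1.16, and the OE33 AGR2 values lie between -0.024 and 0.14.

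Other mucins showed the same split between detected and undetected genes. Of 12 listed, 10 had a probe and 5 were tested. MUC2, the gel-forming mucin of intestinal goblet cells, and MUC7, MUC15, MUC17 and MUC21 were detected on fewer than 3 arrays. Called higher in OE33 control cells were MUC4, a membrane mucin that partners ERBB2, at least 15.5-fold (limma adjusted p = 1.45e-08), and MUC16 (1.35, SE 0.37, limma adjusted p = 0.00948). A dimmer MUC4 probe gave 0.56 (SE 0.29, limma adjusted p = 0.150 over probes). In siRNA cells 1 of the 5 was called, MUC4, and 2 were without OE21 siRNA 3, where 6074 of 12211 genes were called. MUC4 was detected on 0 of 6 OE21 arrays, so it entered the fit only through the line where it was high. Over all genes 49.2% were called in control cells and 50.8% in siRNA cells, above the shares of this list. The list's median difference in control cells was 0.12, against 0.011 over all genes.

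The enzymes that build mucin-type O-linked sugars were measured far more often than the mucins. All 25 listed had a probe and 21 were tested, of which 12 were called higher in OE33 control cells and 3 lower, where 25% and 24.2% of all genes were. Their median difference was 1.21, against 0.011 over all genes. GALNT5, which attaches the first sugar to the protein, was at least 53.2-fold higher (limma adjusted p = 2.53e-10), and FUT3, the Lewis fucosyltransferase, at least 10.5-fold (limma adjusted p = 3.56e-07). B3GNT3, which extends the core sugars, was higher by 3.16 (SE 0.30), and GCNT3, the mucin-type branching enzyme, by 2.54 (SE 0.24).

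Lower in OE33 were the sialyltransferase ST6GALNAC2 (-2.43, SE 0.50), GALNT14 (at least 4.25-fold) and the core branching enzyme GCNT1 (-1.99, SE 0.19). The limma adjusted p-values of these 3 and of B3GNT3 and GCNT3 lay between 3.21e-06 and 0.00161. GCNT1 was detected on 1 of 3 OE33 control arrays. In siRNA cells 12 were again called higher and 3 lower. Genes seen in 1 line only could enter the fit only through the line where they were high, which was so for 4 of the 21 and for 9.40% of all genes.

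Of 26 genes known as partners of secretory cells, 14 were tested, 5 called higher in OE33 control cells and 2 lower, where 25% and 24.2% of all genes were. The 7 called of 14 are a share near the 49.2% of all genes. FCGBP, a mucus protein that binds trefoil peptides, was at least 21.8-fold higher (limma adjusted p = 4.45e-10). ZG16B, a secreted lectin, was at least 6.77-fold higher, and SYTL2, which tethers secretory granules, at least 7.53-fold. A dimmer SYTL2 probe gave 0.27 (SE 0.30). LCN2, an iron-carrier protein of mucosal defence, was higher by 3.08 (SE 0.46). Lower were ELAPOR1 (-1.93, SE 0.27) and the lipid transfer protein STARD10 (-0.73, SE 0.24). ELAPOR1 was detected on 1 of 3 OE33 control arrays. All 6 genes had limma adjusted p-values between 4.45e-10 and 0.0233.

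The other 12 partners were detected on fewer than 3 arrays, among them the goblet cell genes CLCA1, ZG16 and SPINK4 and the gastric genes GKN2, CTSE and CLDN18. AGR3, the neighbour and relative of AGR2, was detected on at most 1 array of any group and was not called (-0.21, SE 0.27, limma adjusted p = 0.542). Of the tested partners 7 of 14 were seen in 1 line only, which entered the fit through the line where they were high. In siRNA cells 6 were called higher and 4 lower, where 25.6% and 25.2% of all genes were.

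Transcription factors of secretory and columnar cells went both ways. Of 20 listed, 17 had a probe and 11 were tested, with 6 called higher in OE33 control cells and 3 lower, where 25% and 24.2% of all genes were. The median was 0.43 in control cells and -0.0017 in siRNA cells, against 0.011 and 0.0085 over all genes. FOXA1 was higher by 3.38 (SE 0.18), the ETS factors EHF and ELF3 by 3.31 (SE 0.41) and 2.63 (SE 0.33), and CDX2, the intestinal factor, at least 8.04-fold. CDX2 was detected on 0 OE21 arrays, so it entered the fit only through the line where it was high. Of the 11 tested, 1 was seen in 1 line only, against 9.40% of all genes. FOXA2, a forkhead factor of tissues that arise from endoderm, was lower in OE33 (-2.15, SE 0.51). KLF5 (-1.02, SE 0.17) and KLF4 (-0.90, SE 0.28) were also lower. The limma adjusted p-values of these 7 lay between 4.60e-09 and 0.0191. FOXA3, GATA4, GATA6, CDX1, ATOH1 and CREB3L1 were detected on fewer than 3 arrays. In siRNA cells 4 were called higher and 3 lower, where 25.6% and 25.2% of all genes were.

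AGR2 is linked to the unfolded protein response through its place in the endoplasmic reticulum. Of 26 genes listed for this response, 25 had a probe. HERPUD1 had none, and PDIA3, ERN1 and ERO1B were detected on fewer than 3 arrays. The tested genes were detected in both lines with 1 exception, SEL1L. Of 22 tested, 6 were called higher in OE33 control cells and 2 lower, where 25% and 24.2% of all genes were, and the median was 0.26 in control cells and 0.033 in siRNA cells. OE33 control 2 lay at 0.38 from the line's mean for this list, against -0.052 and -0.021 on the other OE33 control arrays. The count called without OE33 control 2 was also 8, where 6015 of 12235 genes were called. Among the genes called, the largest rise was that of the chaperone DNAJB9 (2.36, SE 0.41, limma adjusted p = 0.0005), followed by EIF2AK3 (0.88), EDEM1 (0.80) and ERO1A (0.64). On OE33 control 2 DNAJB9 read 9.92, against 8.06 and 8.19 on the other OE33 control arrays, and EIF2AK3 read 7.37, against 6.49 and 6.01. HSPA5, the main chaperone of the compartment, was at -0.52 (SE 0.13, limma adjusted p = 0.00535) and the sensor ATF6 at -0.38. The count called was 4 without OE21 control 2, where 5420 of 12205 genes were called. It was 5 without OE21 control 1, where 5594 of 12170 genes were called. With all arrays 6060 of 12322 genes were. In siRNA cells 3 were called higher and 5 lower, where 25.6% and 25.2% of all genes were. Without OE33 siRNA 1, the count called in siRNA cells was 5, where 5504 of 12247 genes were called.

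**Figure D4:**
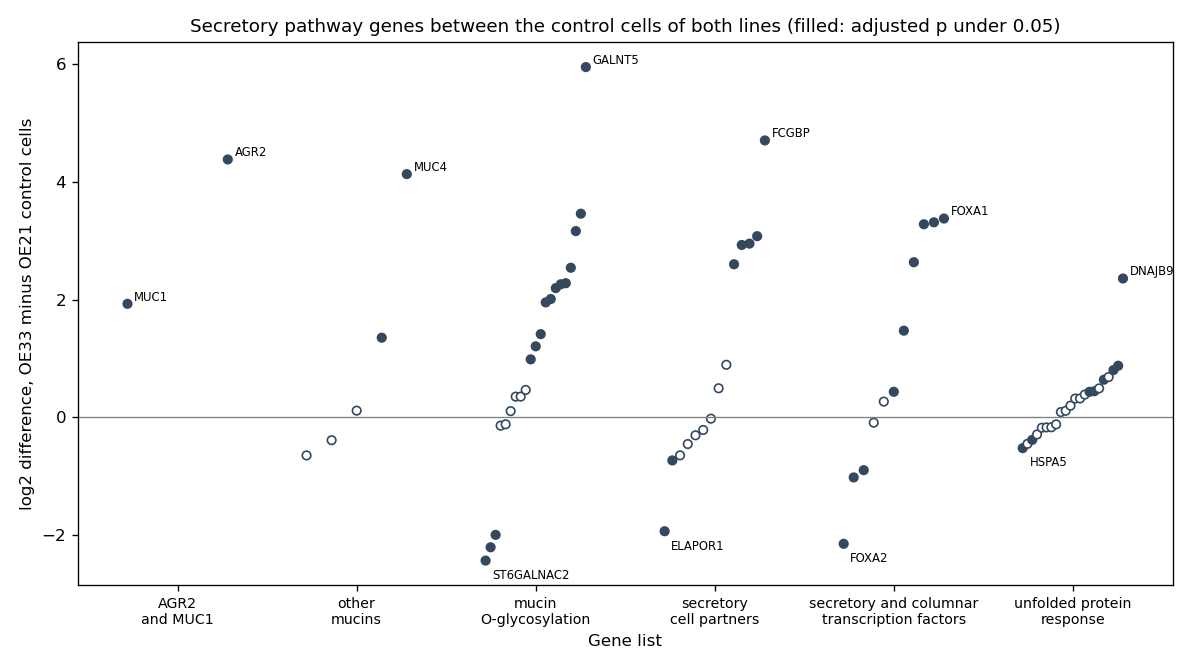
Log2 difference between OE33 and OE21 control cells (vertical axis) for AGR2 and MUC1 and for the tested genes of 5 lists (horizontal axis), with filled points at an adjusted p under 0.05. Sugar-adding enzymes spread from -2.43 to 5.95, and unfolded protein response genes from -0.52 to 2.36.

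After STAT3 siRNA 0 genes of these lists were called in either line. The list medians ran from 0.022 to 0.16 in OE21 and from -0.15 to 0.15 in OE33, against -0.0030 and -0.0098 over all genes. The genes with the smallest p in OE21 were B4GALT1 (0.43, SE 0.15) and GALNT6 (0.79, SE 0.30) of the sugar-adding enzymes, and STARD10 (0.52, SE 0.20) and CREB3L4 (-0.65, SE 0.36) of the partners. They were MUC16 (0.37) and MUC12 (-0.11) of the mucins, FOXA1 (0.26) and KLF5 (0.16) of the factors, and HSPA5 (0.69, SE 0.13) and EIF2AK3 (0.49) of the unfolded protein response. Their limma adjusted p-values ran from 0.301 to 0.880. In OE33 the corresponding genes were B3GNT6 (0.58), GCNT3 (-0.25), PSCA (-0.51), STARD10 (-0.52), MUC16 (-0.10), MUC4 (-0.09), XBP1 (-0.29), SOX9 (0.19), DNAJC3 (-0.79) and ATF6 (-0.30), with limma adjusted p = 0.991. In OE33 the siRNA difference was negative for all 22 unfolded protein response genes, and 0 of them were called. Their median was -0.15, where that of the 10634 genes tested in OE33 was -0.0098. The share of all genes with a negative difference was not counted. For this list control 2 alone lay at 0.38 from the line's mean, against -0.16 to -0.02 on the other arrays.

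The 5 genes whose pattern over the 12 arrays was most like that of AGR2 were sought among 12321 genes by the root mean square distance of centred log2 levels. They were PLBD1, a phospholipase-like enzyme (distance 0.448), ICA1, a protein of secretory vesicles (0.449), the receptor ERBB2 (0.459), PLAAT4 (0.518) and P3H4 (0.518). PLBD1 was 4.63 log2 units higher in OE33 control cells, ICA1 4.34 and ERBB2 4.05. The distance spans both lines, so a gap near that of AGR2 follows from how these genes were picked. TFF1 was not in the fit, so no genes were named for it.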

How the data were processed

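Per the labels' protocols, biotin-labelled cRNA was made with Ambion's MessageAmp kit and read on Illumina arrays. The authors deposited a linear intensity for each probe and array before normalisation, with a detection p-value beside each. They also deposited normalised intensity values, by a method not given in the sources used here. Their scale is linear and not centred, with medians of 106.4 to 107.2, and each array's column followed its own array (Spearman correlation at least 0.99996).

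Of 47323 probes, 4 with missing values were left out. The neqc function (offset 16) of limma 3.58.1 in R 4.3.3 corrected the background and quantile-normalised the arrays. Probes entered a fit with a detection p under 0.01 on 3 or more arrays. The probe with the highest mean stood for its gene, and single probes were fitted too. The platform annotation gave 30111 probes 1 symbol, and the GRCh38.p14 gene table changed 0 of them.

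The siRNA comparisons were fitted within each line (4 residual degrees of freedom) and the others over 12 arrays (8). Tests were two-sided moderated tests of limma with Benjamini-Hochberg adjustment over all genes, called under 0.05. With 3 arrays a group, the number of arrays limits the precision. All arrays carry 1 array identifier, so no slide batch could be tested. In OE33 the deviations of same-numbered control and siRNA arrays correlated across genes at 0.101, 0.340 and 0.135. Control 1 correlated more with siRNA 3 (0.196), and control 3 nearly as much with siRNA 1 (0.121), so a pairing by number is not clear. The main fits held no block, and a replicate block changed 0 calls in OE33. The fitting code was tested on simulated data. Whether the 3 arrays of a group reflect separate cultures rests on the design text.

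The members and lists were chosen with earlier results of these data known, and the alternatives tried are given in the closing part. Named were all members, STAT3, up to 4 called genes of each list in each direction with the largest difference between control cells, the 2 genes of each list with the smallest p in each siRNA comparison, the 5 genes nearest to AGR2 and the cell type markers described.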

Additional observations from a re-analysis of the deposited data

Results flagged for a closer look

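The MUC1 probe ILMN_1677314, which entered no comparison, was detected on STAT3 siRNA arrays and on 0 of 6 control arrays. It read 5.52 log2 units on OE21 siRNA 3 and 4.78 on OE33 siRNA 1. On the other siRNA arrays it was not detected, and on OE21 control 2 it read 4.93 without being detected. The 2 other MUC1 probes did not read highest on OE21 siRNA 3.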

How the results depend on the processing

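By the probe with the highest mean, AGR2 and MUC1 were called higher in OE33 in control cells and in siRNA cells under every alternative tried. By that probe, neither was called in an siRNA comparison under any. In the fit of single probes the MUC1 probe ILMN_2371911 was not called between siRNA cells (limma adjusted p = 0.0619 over probes). In control cells AGR2 ranged from 4.07 to 4.56 and MUC1 from 1.86 to 2.04 when single arrays were left out. Leaving out single arrays gave -0.092 to 1.16 for AGR2 and -0.10 to 0.37 for MUC1 after siRNA in OE21, and -0.024 to 0.14 and -0.048 to 0.34 in OE33. For the difference between the lines' siRNA effects it gave -1.10 to 0.15 for AGR2 and -0.21 to 0.28 for MUC1, the latter also turning to -0.055 with array weights. With array weights 7127 of 12322 genes were called between control cells and 8091 of 12322 between siRNA cells. In OE21 270 of 11179 were called, and 229 of 12322 for the difference between the siRNA effects. Among these calls were 4 other mucins in control cells and 2 in siRNA cells. Of the unfolded protein response genes 14 were called in siRNA cells, 1 in OE21 and 1 for the difference, as was 1 secretory partner for the difference. Of single probes, 9090 of 21659 were called between control cells, 9528 of 21659 between siRNA cells and 1 of 18809 in OE21. The fit of all 12 arrays called 12 of 12322 genes in OE21. With only the 6 arrays compared, 4 unfolded protein response genes were called in control cells, where 5231 of 11303 genes were. Leaving out single arrays gave 4 to 9 unfolded protein response genes in control cells, 5 to 10 in siRNA cells, and 1 to 2 other mucins in siRNA cells. Over all genes the same fits called 5389 to 6254 in control cells and 5337 to 6781 in siRNA cells. With a detection p under 0.05, chosen after seeing the data, 4 members could be tested. With no detection filter 8 members entered every fit, with MUC13, MUC5B, SPDEF and the trefoil factors at background. In OE21 the replicate numbers did not pair the arrays (correlations 0.450, -0.399 and 0.502), and the replicate block called 0 genes there. With the replicate block AGR2 was at 4.38 (SE 0.45) and MUC1 at 1.93 (SE 0.25) in control cells, and no call of a member changed. The causes of these shifts were not tested. Low signal over background limits MUC13, MUC5B, SPDEF and the trefoil factors.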

Other observations

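OE33 control 2 stood apart for several secretory genes. From the mean of the line, it lay at 0.38 for 22 unfolded protein response genes, 0.19 for 10 secretory partners and 0.16 for 19 sugar-adding enzymes. It lay at -0.22 for 10 transcription factors of secretory and columnar cells. AGR2 read 10.52 there, the highest of the OE33 control arrays but below OE33 siRNA 3 (10.57). The MUC1 probe ILMN_2371911 read 6.93, the highest of all 12 arrays. The brighter MUC1 probe ILMN_1756992 did not stand apart, at 7.50 against 7.56 on OE33 control 3 and 8.05 on OE33 siRNA 1. Without OE33 control 2, AGR2 after STAT3 siRNA in OE33 was at 0.14 (SE 0.13) and MUC1 at 0.22 (SE 0.25).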
